A study of Homo sapiens with 6 samples.

Results

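The miR-378 family is a set of mature miRNAs encoded by hairpins on several chromosomes, which share one seed except for the 5p arm of miR-378a. The members were chosen by name as hsa-miR-378a-3p, hsa-miR-378a-5p, hsa-miR-378c, hsa-miR-378d and hsa-miR-378i, where hsa marks human and is left out from here on. Rows for 4 of these 5 were found among the 1000 mature miRNAs of the count table, and miR-378i was not analysed here. The table also holds miR-378e, miR-378f and miR-378h, 3 further copies outside the chosen list, which are described beside the members. The study compared HEK 293T cells, which derive from human embryonic kidney, lacking both terminal uridylyltransferases TUT4 (TENT3A) and TUT7 (TENT3B), called ΔTUT4/7, with wild type (WT) HEK 293T cells. Neither strain received a treatment, and each was sequenced as 3 libraries labelled as biological replicates. The ΔTUT4/7 cells were a knockout line supplied from earlier work, so any other difference between the lines is part of each comparison. The labels do not say how the replicate cultures were separated, and p-values measure the spread between these libraries.

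TUT4 and TUT7 add uridines to the 3′ ends of RNA, including miRNA precursors, where a single uridine can aid Dicer cleavage and an oligouridine tail can mark the precursor for decay. miR-378a lies in an intron of PPARGC1B, which encodes the coactivator PGC-1β, a regulator of mitochondrial and lipid metabolism. Its 3p arm is known from skeletal muscle, liver and fat as a regulator of oxidative metabolism, with carnitine acetyltransferase among its targets, and its 5p arm has been linked to the shift toward glycolysis in breast cancer cells. The other copies are close relatives of the 3p arm whose functions are little described.

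The sequences below, from RefSeq (GRCh38.p14), show what a trimmed read can and cannot tell apart, with the seed (bases 2 to 8) in capitals.
miR-378a-3p: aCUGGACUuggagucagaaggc
miR-378c: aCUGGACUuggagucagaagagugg
miR-378i: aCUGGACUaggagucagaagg
miR-378f: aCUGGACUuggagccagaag
miR-378h: aCUGGACUuggugucagaugg
miR-378a-5p: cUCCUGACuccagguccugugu
Positions are counted from 1 at the 5′ end of miR-378a-3p, and the base of miR-378a-3p is written first. Within the bases both sequences cover, miR-378c differed at G21A and C22G, miR-378i at U9A, miR-378f at U14C, and miR-378h at A12U and A19U. The sequences of miR-378d and miR-378e are not shown. Read at their deposited coordinates, miR-378d first differed from miR-378a-3p at position 20 and miR-378e at position 18. The authors trimmed reads to 18 nt, so if the first 18 bases were kept, reads of miR-378a-3p, miR-378c and miR-378d were identical. Reads of miR-378e, miR-378f, miR-378h and miR-378i would each differ from them at 1 base of the 18. The first 18 nt of miR-378a-3p occur at 12 places in the main chromosomes of hg38, 3 of which are the rows for these miRNAs, while those of miR-378a-5p occur at 3 places. Of the 1000 miRNAs, 33 shared their first 18 nt with another one. The seed of the 3p arm was shared by 6 rows of the table, all named miR-378, and that of miR-378a-5p by no other row.

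Both arms of miR-378a come from 1 hairpin of 66 nt, on the plus strand of chromosome 5 of hg38 from 149732825 to 149732890, which is shown because the results turn on its arms. The capitals mark the 5p arm and then the 3p arm.
MIR378A hairpin: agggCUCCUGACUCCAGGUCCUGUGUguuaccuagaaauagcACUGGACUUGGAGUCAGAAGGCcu
The 5p arm spans chr5:149732829-149732850 and the 3p arm chr5:149732867-149732888, with 16 nt between them. GENCODE places the hairpin in an intron of PPARGC1B, on the same strand. miR-378d was counted at chr4:5923279-5923298, on the minus strand in an intron of C4orf50. miR-378c, at chr10:130962634-130962658 on the minus strand, lies in no annotated host gene. miR-378e, on the plus strand of chromosome 5 from 170028545 to 170028563, lies in an intron of DOCK2. miR-378f, on the plus strand of chromosome 1 from 23929121 to 23929140, has no annotated host. miR-378h, on the plus strand of chromosome 5 from 154829466 to 154829486, lies opposite in strand to FAXDC2. PPARGC1B and the other host transcripts were not analysed here.

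The 6 libraries held 4338558 to 7967606 counts each, written as whole numbers after reads that match several miRNAs had been divided among them. Values are CPM, the counts of a miRNA per 1000000 counts of its library, so they are relative levels in which a gain of abundant miRNAs lowers all others. The test was the quasi-likelihood test of edgeR on the 826 miRNAs whose highest count exceeded 7, and p-values were adjusted over all of them by the Benjamini-Hochberg method. A miRNA was called when it changed at least 2-fold with an adjusted p under 0.05. Of the miRNAs of other lineages listed as markers, 4 of 10 had rows in the table. Their summed level was 32.6 to 37.8 CPM in ΔTUT4/7 and 51.8 to 99.1 CPM in WT libraries, mostly miR-142-3p. Both that could be tested, miR-142-3p and miR-122-5p, were called lower in ΔTUT4/7 cells, against 13.6% of all tested miRNAs. The call of miR-122-5p rested on 7 counts in ΔTUT4/7 and 26 in WT libraries (edgeR adjusted p = 0.0491). The part of these miRNAs in the results was not tested. No miRNA list defines the kidney line itself, and mature miRNAs do not measure the deleted genes. Among the 391 miRNAs with a mean of at least 10 CPM, WT replicate 3 departed most from the other libraries of its strain, with an SD of the log2 difference of 0.50 against 0.17 to 0.35 for the other 5 libraries.

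Both arms of miR-378a were moderately abundant, and all knockout libraries held more of each than any WT library, as was the case for 28.8% of the tested miRNAs, while for 58.4% the strains did not overlap in either direction. miR-378a-5p rose 1.60-fold in ΔTUT4/7 cells, and miR-378a-3p was 1.29-fold higher without passing the test. Neither reached 2-fold. The family as a whole took 0.134% to 0.144% of the counts in ΔTUT4/7 and 0.0939% to 0.0994% in WT libraries, almost all of it from these arms.

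The 5p arm, the strand linked to glycolysis in breast cancer cells, had 767, 740.4 and 692 CPM in ΔTUT4/7 replicates 1, 2 and 3. In WT replicates 1, 2 and 3 it had 409.6, 423 and 542 CPM. The strains did not overlap, and WT replicate 3 lay closest to the knockout. The means were 733 ± 37.9 CPM in ΔTUT4/7 and 458 ± 73.0 CPM in WT cells (SD, n = 3 each). The log2 fold change was 0.68 with a 95% interval of 0.34 to 1.01 (standard error 0.15), and it passed the test (edgeR adjusted p = 0.00388). It was 0.82 without WT replicate 3 and 0.48 with the GC trend of each library removed, and stayed past the test in all 16 alternatives.

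The 3p arm, the metabolic regulator, had 668, 639 and 640.5 CPM in ΔTUT4/7 replicates 1, 2 and 3. In WT replicates 1, 2 and 3 it had 580.2, 512 and 422.3 CPM. Again the strains did not overlap, but here WT replicate 3 lay farthest from the knockout and WT replicate 1 closest. The means were 649 ± 16.4 CPM in ΔTUT4/7 and 505 ± 79.2 CPM in WT cells (SD, n = 3 each), and the log2 fold change was 0.36 with a 95% interval of 0.03 to 0.70 (standard error 0.15). It missed the limit by edgeR (adjusted p = 0.0732, unadjusted p = 0.0363). The arm passed the test without WT replicate 1 (0.47, edgeR adjusted p = 0.0317) and with let-7/miR-98-free library totals (0.59, edgeR adjusted p = 0.00839). Without WT replicate 3 it was 0.25 (edgeR adjusted p = 0.0870). The range over all 16 alternatives was 0.25 to 0.59, with adjusted p of 0.00839 to 0.181.

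**Figure D1:**
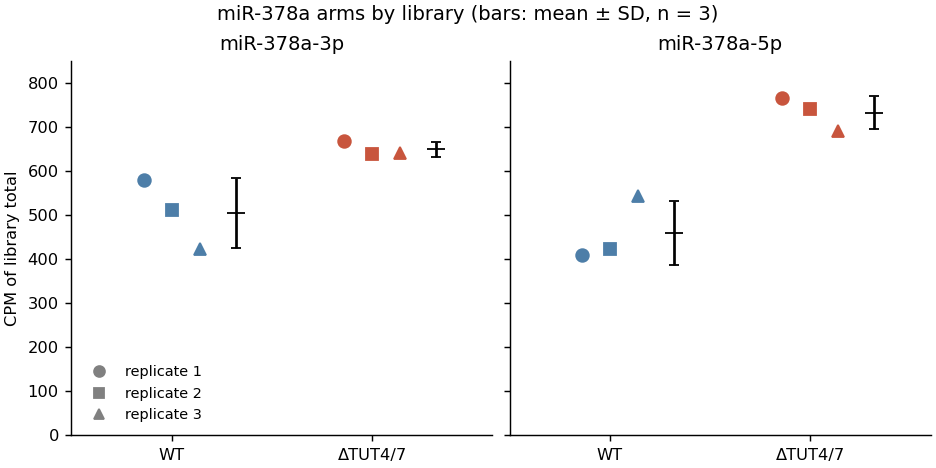
CPM of miR-378a-3p (left) and miR-378a-5p (right) in each library (points, 3 per strain) with the mean and SD of the strain beside them. The ΔTUT4/7 libraries sit at 639 to 668 CPM on the left and 692 to 767 CPM on the right, above all WT libraries, in which replicate 3 is lowest for the 3p arm and highest for the 5p arm.

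The whole table gives the background for these values. Of the 2 members that could be tested, 1 passed at an adjusted p under 0.05 with a rise, against 23.2% of all tested miRNAs that did so and 45.2% that passed in either direction. At 2-fold 0 members were called, against 30.0% of all tested miRNAs and 16.5% called higher. The edgeR test gave both arms an unadjusted p under 0.05, and with DESeq2 or limma-trend also 1 of the 2 passed and 0 were called. Of the 826, 313 had a larger log2 fold change than miR-378a-3p and 239 a larger one than miR-378a-5p, while the median over all was 0.01. With let-7/miR-98-free totals, the median of all tested miRNAs was 0.23, and relative to that median both arms remained positive.

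**Figure D2:**
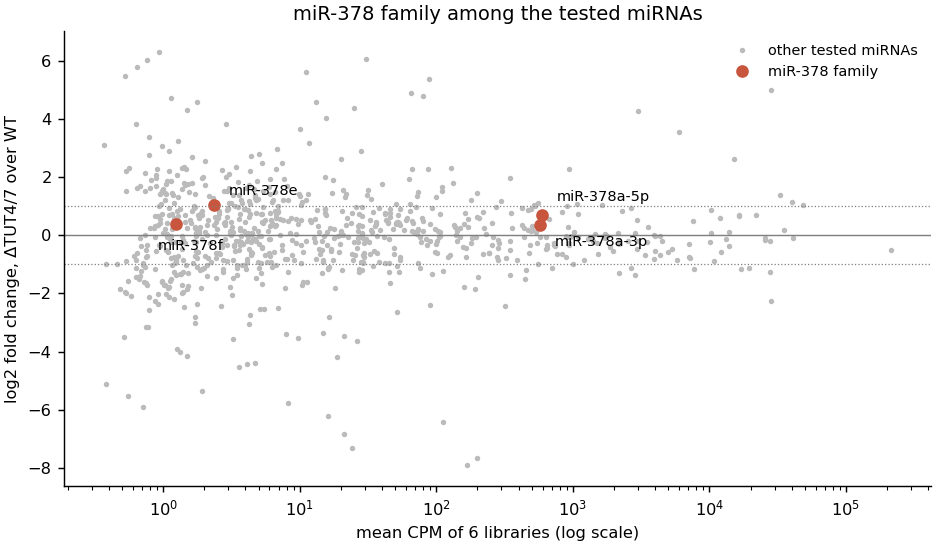
Log2 fold change of ΔTUT4/7 over WT against the mean CPM of the 6 libraries (log scale) for the 826 tested miRNAs, with the 4 tested rows of the miR-378 family marked and dotted lines at 2-fold. Both miR-378a arms lie above 0 and under the 2-fold line, miR-378e lies at the line at a low level, and miR-378f is near 0.37.

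**Figure D3:**
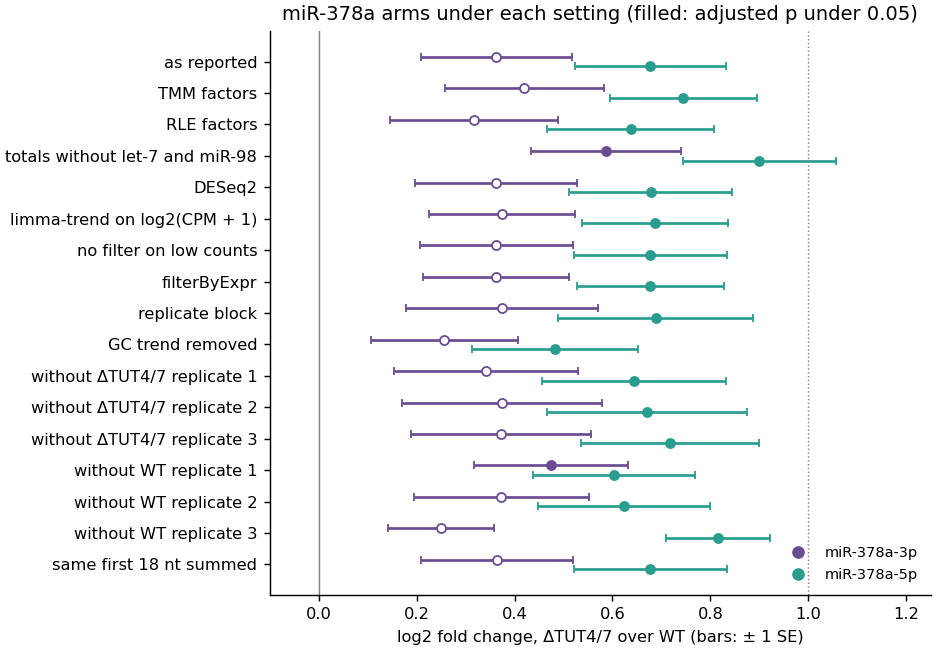
Log2 fold change of both miR-378a arms with its standard error as reported and under each alternative, filled where the adjusted p was under 0.05. The 5p arm is filled in every row with values of 0.48 to 0.90, whereas the 3p arm is filled only when WT replicate 1 was left out or let-7/miR-98-free totals were used.

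The counts of the miR-378a arms were near parity on average, which is uncommon among hairpins. Averaged over the 6 libraries, the log2 ratio of its arms was 0.02 in size. The median was 3.98 over the 103 hairpins with both arms at a mean of at least 10 CPM. By this average 0 of the others were closer to parity. The comparison was chosen after the values were seen. Its 0.02 arose because ratios of opposite sign cancelled, from -0.36 in WT replicate 3 to 0.50 in WT replicate 1. A rank in which signs do not cancel was not tested. The trimmed bases of the 3p arm, if taken from its start, occur at 12 places, and those of the 5p arm at 3. The counts therefore need not come from this hairpin alone. The 3p arm made up 46.6%, 46.3% and 48.1% of both arms in ΔTUT4/7 replicates 1, 2 and 3. The 95% Wilson intervals, which cover counting error only, were 45.4% to 47.7%, 45.1% to 47.5% and 46.8% to 49.3%. In WT replicates 1, 2 and 3 the share was 58.6% (57.2% to 60.1%), 54.8% (53.6% to 55.9%) and 43.8% (42.3% to 45.3%). The knockout libraries favoured the 5p arm slightly and lay close together, while 2 WT libraries favoured the 3p arm and replicate 3 favoured the 5p arm.

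The strains overlapped in this balance. The log2 ratio of 3p to 5p was -0.17 ± 0.05 in ΔTUT4/7 and 0.14 ± 0.45 in WT cells (SD, n = 3 each), a difference of -0.31 (standard error 0.26, 2-sided exact permutation test, p = 0.4, where the smallest p this design allows is 0.1). The size of the difference rested on single WT libraries, at -0.56 without WT replicate 3 and -0.13 without WT replicate 1. A different strain effect on the arms was not shown, although only the 5p arm passed the test. The ratio spread over 0.86 on the log2 scale among WT libraries, and 32 of the 103 hairpins spread more. Among ΔTUT4/7 libraries it spread over 0.10, and 97 hairpins spread more.

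Summing the arms, a step chosen after the values were seen, gave a smaller spread than either arm within WT, but not within ΔTUT4/7 cells. Both arms together had 1435, 1379 and 1332 CPM in ΔTUT4/7 replicates 1, 2 and 3, and 990, 935 and 965 CPM in WT replicates 1, 2 and 3. The strains did not overlap in the sum, as held for 58.4% of the tested miRNAs in either direction. This had to follow, because they overlapped in neither arm, and it fixed the permutation p of the sum. Among WT libraries the coefficient of variation was 15.7% in the 3p arm, 15.9% in the 5p arm and 2.83% in the sum, and the WT library with the highest CPM of the 3p arm had the lowest CPM of the 5p arm. Among ΔTUT4/7 libraries it was 2.53%, 5.18% and 3.71%, so there the sum varied more than the 3p arm alone. Counting error alone would give 1.57% to 2.34% for miR-378a-3p and 1.60% to 2.35% for miR-378a-5p. The sum was 1.43-fold higher in ΔTUT4/7 cells, at 1382 ± 51.3 against 963 ± 27.2 CPM (SD, n = 3 each, 2-sided exact permutation test, p = 0.1, the smallest possible here).

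**Figure D4:**
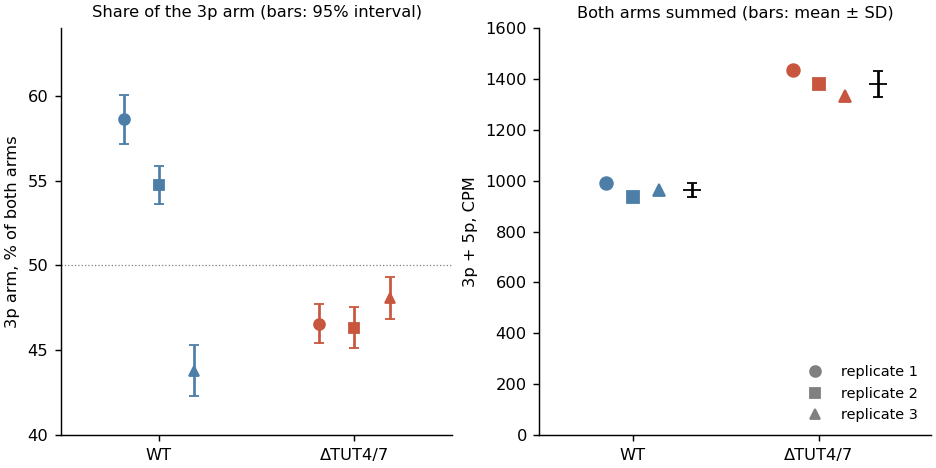
Left, the share of the 3p arm in both miR-378a arms, in percent, for each library with its 95% Wilson interval and a dotted line at parity. Right, the CPM of both arms summed, with the mean and SD of each strain. WT replicate 3 falls under the knockout libraries in the share at 43.8%, but the sums of the 3 WT libraries lie together at 935 to 990 CPM, below 1332 to 1435 CPM in the knockout.

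The copies at other loci were close to the limit of detection. miR-378c had 5, 2 and 2 counts in ΔTUT4/7 replicates 1, 2 and 3 and 0, 0 and 2 counts in WT replicates 1, 2 and 3, where a count of 0 allows up to 0.68 CPM in replicate 1 and 0.377 CPM in replicate 2. The strains overlapped, and the ratio of pooled rates was 5.16 with a 95% counting interval of 1.07 to 49.1. miR-378d had 3 counts in each ΔTUT4/7 library and 2, 5 and 0 counts in WT replicates 1, 2 and 3, where the 0 allows up to 0.691 CPM. Its ratio of pooled rates was 1.48, with an interval of 0.489 to 4.66. These counting intervals pool the libraries of a strain and leave out the spread between replicates. Neither miR-378c nor miR-378d passed the filter on low counts. With no filter, the edgeR adjusted p was 0.160 for miR-378c and 0.632 for miR-378d, so a difference between the strains was shown for neither.

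If the first 18 bases were kept, miR-378c and miR-378d share identical reads with miR-378a-3p, and their levels depend on how the quantifier divided them. Of the counts given to miR-378a-3p, miR-378c and miR-378d, 99.8% went to miR-378a-3p in each ΔTUT4/7 library and 99.9% in each WT library. Summed over the 3 rows, the level was 650.4 ± 16.7 CPM in ΔTUT4/7 and 505.4 ± 79.2 CPM in WT cells (SD, n = 3 each). For this sum the log2 fold change was again 0.36 (standard error 0.15), with an edgeR adjusted p of 0.0744 over the 813 miRNAs left to test, so the value was as large without that division. Under the same assumption, which locus produced the reads, among these 3 and the other places with the same 18 nt, cannot be told from these counts.

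Among the copies outside the chosen list, miR-378e stood at the 2-fold line. It had 2.76, 3.33 and 3.41 CPM in ΔTUT4/7 replicates 1, 2 and 3, from 14, 16 and 16 counts. In WT replicates 1, 2 and 3 it had 1.81, 1.63 and 1.15 CPM, from 8, 13 and 5 counts. The strains did not overlap, and the rise was 1.02 on the log2 scale (standard error 0.37), called by edgeR with an adjusted p of 0.0406. The adjusted p of miR-378e was under 0.05 in 6 of 15 alternatives, among them limma-trend, where the log2 fold change of 0.72 was under 2-fold. With any 1 library left out the adjusted p was no longer under 0.05, while the log2 fold change stayed at 0.88 to 1.12. The edgeR adjusted p was 0.0544 without ΔTUT4/7 replicate 1, 0.110 and 0.0920 without ΔTUT4/7 replicates 2 and 3, and 0.0566, 0.0845 and 0.0804 without WT replicates 1, 2 and 3. The first 18 bases of miR-378e differ from those of miR-378a-3p at 1 base. Per 100 counts of miR-378a-3p, miR-378e had 0.413, 0.521 and 0.533 in the ΔTUT4/7 libraries and 0.313, 0.319 and 0.273 in the WT libraries.

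miR-378f had 1.36 ± 0.574 CPM in ΔTUT4/7 and 1.12 ± 0.617 CPM in WT cells (SD, n = 3 each), with overlapping libraries. Its log2 fold change of 0.37 had a standard error of 0.59 and did not pass (edgeR adjusted p = 0.644). miR-378h had 7 counts in each strain, from 1 to 5 per library, and was under the filter. Its ratio of pooled rates was 1.15, with an interval of 0.343 to 3.83, so no difference was detectable at this depth.

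**Figure D5:**
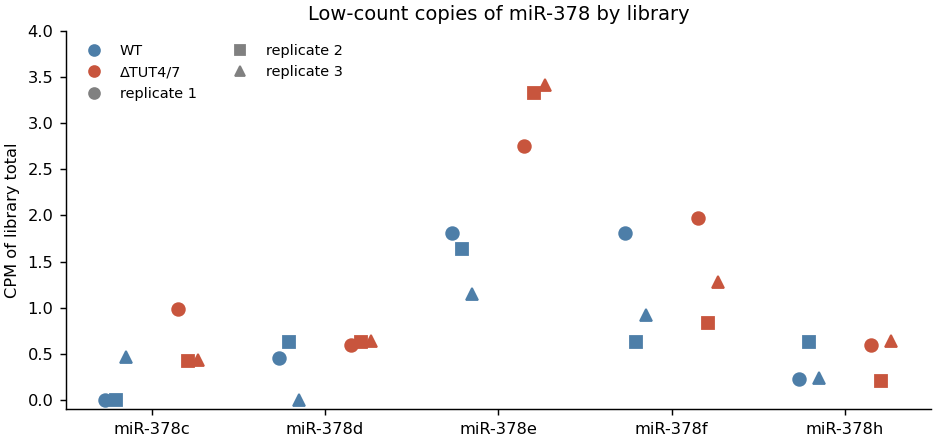
CPM of the low-count copies miR-378c, miR-378d, miR-378e, miR-378f and miR-378h in each library, by strain (color) and replicate (symbol). In miR-378e, but not in the other copies shown, the ΔTUT4/7 libraries, at 2.76 to 3.41 CPM, all lie above the WT libraries, at 1.15 to 1.81 CPM.

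Over the 6 libraries, the log2(CPM + 1) of the 2 arms of miR-378a had a Pearson correlation of 0.57. Of 390 miRNAs with a mean of at least 10 CPM, those most alike to miR-378a-3p were miR-5001-3p (r = 0.99), miR-221-5p (0.98), miR-425-5p (0.98), miR-548e-5p (0.96) and miR-138-5p (0.96). The most alike to miR-378a-5p were miR-196b-3p (0.99), miR-4521 (0.99), miR-1257 (0.99), miR-101-2-5p (0.98) and miR-7-1-3p (0.98). All 10 were higher in ΔTUT4/7 cells at an edgeR adjusted p under 0.05, against 23.2% of all tested miRNAs. Of them, miR-1257 and miR-101-2-5p were past 2-fold, against 16.5% of all tested miRNAs called higher. Being picked for likeness to arms that separate the strains favours such a rise, so these counts are no separate result. These correlations share the libraries and the difference between the strains, and are a description only.

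miR-378a was also set beside a list of other intronic miRNAs. The list was made for metabolic or muscle host genes, but also holds miR-26a-5p and miR-26b-5p from introns of CTDSP genes. Of 11 listed, 10 were tested, of which 1 was called higher and 2 lower, against 16.5% called higher and 13.6% called lower over all tested miRNAs, so these counts lie near the background. A positive log2 fold change was found for 4 of the 10 and for 416 of all 826, with medians of -0.27 and 0.01. miR-26b-5p, from an intron of CTDSP1, was the most abundant and fell from 26563 ± 3482 to 12252 ± 626 CPM (SD, n = 3 each, log2 fold change -1.12, edgeR adjusted p = 1.54e-05). miR-499a-5p, from an intron of MYH7B, fell by 1.60 on the log2 scale (standard error 0.30, edgeR adjusted p = 0.00122). miR-208a-3p, from the cardiac myosin gene MYH6, had 27 counts in ΔTUT4/7 and 0 in WT libraries (log2 fold change 6.30, standard error 1.12, edgeR adjusted p = 0.00139). Its ΔTUT4/7 mean of 1.87 CPM was 10.4-fold above a floor of 3 counts over the WT libraries. That ratio leaves out the counting error of the 27 counts. miR-33a-5p and miR-33b-5p, from the genes of the sterol regulators SREBF2 and SREBF1, had log2 fold changes of -0.30 and -0.56 and did not pass. Nor did miR-33a-3p, at -0.23, or miR-33b-3p, miR-103a-3p and miR-107, which were positive at 0.39, 0.46 and 0.37. miR-26a-5p passed at -0.38 without reaching 2-fold.

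Of 16 miRNAs listed for muscle and fat cells, 10 were tested, and 1 was called higher and 2 lower, again near the 16.5% and 13.6% over all tested miRNAs. At an adjusted p under 0.05 of any size, 7 of the 10 were lower and 1 higher, against 21.9% and 23.2% over all, and the median log2 fold change was -0.68 against 0.01. miR-133b, a muscle miRNA, rose by 1.11 on the log2 scale from 2.40 ± 0.820 to 5.20 ± 0.445 CPM (SD, n = 3 each, edgeR adjusted p = 0.0153). miR-143-3p, abundant in smooth muscle, fell by 2.51 on the log2 scale (standard error 0.35, edgeR adjusted p = 1.43e-04), and miR-196a-5p, linked to brown fat formation, was the most abundant of the list and fell by 1.16 (standard error 0.12, edgeR adjusted p = 7.70e-06).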

How the data were processed

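Mature miRNAs were sequenced from 3 ΔTUT4/7 and 3 WT HEK 293T libraries (QIAseq miRNA Library Kit). Reads were cut to 18 nt by the authors, placed on hg38 by Bowtie 1.0.0, and assigned to mature miRNAs of miRBase 22 in Partek Flow 10.0.22. The deposited values are estimated counts, which the authors obtained by dividing reads that match several miRNAs. They are whole numbers, and the 3 largest are given to 3 digits only. Bowtie settings and the use of molecular identifiers were not given in the sources used here. A table of the authors' own comparison (p-values, ratios, fold changes) was not used.

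Library size was the column total with factors of 1. Counts were fitted with edgeR 4.0.16 in R 4.3.3, and other values were computed in Python 3.11.15 (pandas 2.3.3, scipy 1.17.1). Sequences at the deposited coordinates were read from hg38 and hosts from GENCODE 44. RefSeq held mature sequences of 5 of the 7 family rows. Permutation tests were exact. Named miRNAs were all family rows, the 5 most alike to each arm, and the called and most abundant miRNAs of each list. The uncalled miRNAs of the intronic list were added after their values were seen. The members and lists were chosen with earlier results of these data known.

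Alternatives were TMM and RLE factors, let-7/miR-98-free totals, DESeq2 1.42.0, limma-trend (3.58.1), 2 other filters, a replicate block, each library left out, removal of the GC trend, sums over the same first 18 nt and a 2-fold limit alone. No library was a copy of another: within strains, chi-square divided by its degrees of freedom was 13.3 to 293.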

Additional observations from a re-analysis of the deposited data

How the results depend on the processing

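With let-7/miR-98-free library totals, the log2 fold change was 0.59 for miR-378a-3p and 0.59 for its sum with miR-378c and miR-378d, both past the adjusted p limit, and with TMM factors the sum passed at 0.43. With single libraries left out, the range was 0.25 to 0.47 for miR-378a-3p, 0.25 to 0.47 for the sum (both past the limit only without WT replicate 1), 0.60 to 0.82 for miR-378a-5p and -0.56 to -0.13 for the arm balance. miR-378a-5p kept its direction and stayed past the limit in all 16 alternatives, and none brought either arm to 2-fold. miR-378f ranged from -0.0033 to 0.86 with single libraries left out, at -0.0033 without ΔTUT4/7 replicate 1 and -0.0021 without WT replicate 2. The cause of these shifts was not tested. miR-378e was no longer past the limit with RLE factors, DESeq2, the replicate block or any library left out. With no filter on low counts, miR-378c and miR-378d had adjusted p of 0.160 and 0.632 by edgeR. Over all miRNAs, 108 to 183 were called higher and 81 to 149 lower, against 136 and 112 as reported, and the higher share moved most, to 183 against 81, with let-7/miR-98-free totals.

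With the replicate number as a block, the log2 fold change was 0.37 for miR-378a-3p (edgeR adjusted p = 0.130) and 0.69 for miR-378a-5p (edgeR adjusted p = 0.00733), and the arm balance was -0.31 (exact sign permutation, p = 0.5). The block gave 131 higher and 102 lower calls. Deviations of same-numbered libraries from their strain means had correlations of -0.17, -0.16 and -0.25 over 391 miRNAs. Differently numbered libraries were not compared in this way, so these values cannot tell whether the numbers pair the libraries. Depth limits the copies at other loci, which rest on 0 to 16 counts per library.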
